A study of Komagataella pastoris with 6 samples.

Results

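In 3 cultures of the flocculating yeast strain KM71-ScFlo1-LpDLDH, 173 of 5040 genes took graded levels, with the culture numbered 2 lying between the other 2 and a ratio of at least 1.6 between the cultures numbered 3 and 1. Levels are in CPM, the reads of a gene as a share of the reads on all genes of its library, scaled to a fixed total. The rule asked for at least 300 reads summed over the 6 libraries, which 4994 genes had. It also asked for a ratio between 0.25 and 4 of the mean CPM of KM71-ScFlo1-LpDLDH over that of KM71-LpDLDH, each with 0.5 CPM added, and it left out 3 transporter genes. Of the 173 genes, 127 were higher in culture DF1 than in DF3 and 46 were higher in DF3 than in DF1. The members were thus chosen by the CPM values of DF1, DF2 and DF3 and by the strain ratio, which are given as a description. A fit of the strain difference over all genes is quoted further on for its values only, and supports nothing about the members.

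RNA sequencing compared KM71-ScFlo1-LpDLDH (3 cultures, here DF1, DF2 and DF3) with KM71-LpDLDH (3 cultures, here D1, D2 and D3). KM71 is a laboratory strain of Pichia pastoris, a methylotrophic yeast used to make recombinant proteins. Both strains expressed LpDLDH, a bacterial d-lactate dehydrogenase, and KM71-ScFlo1-LpDLDH also expressed the Saccharomyces cerevisiae gene ScFLO1 from the constitutive GAP promoter on a plasmid with the HIS4 marker, so ScFLO1 and that plasmid cannot be told apart. All 6 cultures were started in MGYH, a minimal medium with glycerol and histidine, at an OD600 of 0.05, kept at 30 °C with shaking at 250 rpm, and harvested at about 21 h. The methods name triplicate cultures without saying whether they came from 1 transformant or several. The numbers 1, 2 and 3 are replicate numbers from the labels, and no order of time, dose or batch is given for them, so none is read from them here.

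Flocculation is the reversible clumping of yeast cells into flocs. It is driven by flocculins such as Flo1, lectin-like proteins of the cell wall that bind mannose chains on neighbouring cells, so cells inside a floc and free cells of the same culture can meet different surroundings. LpDLDH turns pyruvate into d-lactic acid, which the cells have to export. The RNA of a culture is the sum over all its cells, so fewer cells expressing a gene and less of its RNA per cell cannot be told apart.

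The libraries held between 10386352 and 12767753 reads on genes, with the lowest total in DF3. The share of reads on the top 10 genes was 6.75% to 8.24% in the KM71-ScFlo1-LpDLDH libraries, highest in DF3, and 6.73% to 7.42% in the KM71-LpDLDH libraries. Every identifier in the table belongs to the host genome, so ScFLO1 and LpDLDH were not checked here. The reference used here matched 0 of the identifiers, so the members are given by locus identifier, in which chr1 to chr4 name the chromosome, and no role is given to any of them.

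The balance between the 2 directions depended on the scaling of the libraries. Over the 4994 genes, the median DF3/DF1 ratio of CPM was 0.906 (-0.14 on the log2 scale), and 69.7% of genes were lower in DF3 than in DF1. Under TMM scaling, which sets libraries level on the bulk of the genes, the median was 0.979, and the rule took 63 genes higher in DF1 and 80 higher in DF3. Under the size factors of DESeq2 the median was 0.991, and the rule took 58 and 93 genes. All 46 genes higher in DF3 met the rule under both other scalings. Of the 127 genes higher in DF1, 62 met it under TMM and 57 under the size factors, and 57 under all 3 scalings. The other 70 genes higher in DF1 met the rule under total counts but not under all 3 scalings. Among the 57 genes that met it under all 3, the lowest DF1/DF3 ratio of CPM was 1.75. Measured against the median ratio of all genes, the steepest gene higher in DF1 had a DF1/DF3 ratio of 3.98 in place of 4.39.

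**Figure D1:**
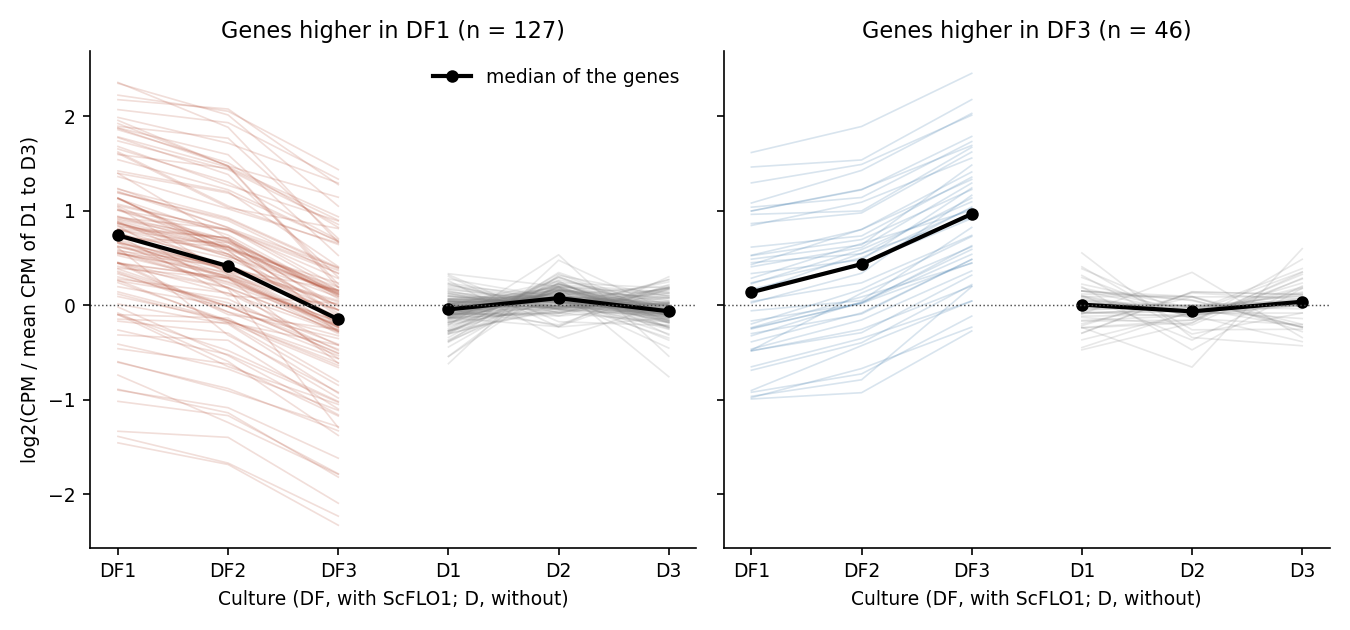
Log2 of CPM over the mean CPM of D1 to D3 for each graded gene (thin lines) in cultures DF1 to DF3, then D1 to D3, with the median of the genes in black, for the 127 genes higher in DF1 and the 46 higher in DF3. The medians spread over DF1, DF2 and DF3, which the rule required. They stay near 0 in D1, D2 and D3, the cultures to whose mean the values are scaled. Lines join the replicates only to show which values belong to 1 gene.

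DF2 was the middle culture in nearly all genes that varied widely among the KM71-ScFlo1-LpDLDH cultures. Within the strain window and with at least 300 reads, 191 genes (3.95%) had a highest level at least 1.6 times the lowest among these cultures, and without the window 4.41% of the 4994 genes did. DF2 was the middle culture in 176 of them, DF1 in 13 and DF3 in 2. Among the KM71-LpDLDH cultures 117 genes (2.42%) varied that much, and the middle culture was D1 in 37, D2 in 35 and D3 in 45. Over all 4994 genes DF2 lay between DF1 and DF3 in 64.4%, and D2 between D1 and D3 in 30.2%. DF2 was nearer to DF1 than to DF3 in 152 of the 173 members, 110 of those higher in DF1 and 42 of those higher in DF3. The position of DF2 was thus nearer to DF1 in most members, as it was in 3308 of all 4994 genes.

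The counts of the members also reflect how they were chosen. The chi-square of the counts per degree of freedom had a median of 80.1 over the members in the KM71-ScFlo1-LpDLDH cultures, against 10.4 for the same genes in the KM71-LpDLDH cultures. Over all 4994 genes these medians were 7.10 and 6.77. The value of 80.1 follows from the ratio the rule asked for, and nothing is read from it. The share of genes with a wide range depended on depth. Among the 1681 genes with 10000 or more reads, 80 varied by at least 1.6 over the KM71-ScFlo1-LpDLDH cultures and 18 over the KM71-LpDLDH cultures. Among the 175 genes with 300 to 1000 reads the order was the other way, with 26 and 44. The members spanned these classes, 63 of them having 10000 or more reads and 19 having under 1000.

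The 127 genes higher in DF1 were mostly of moderate level. Their mean CPM in KM71-ScFlo1-LpDLDH had a median of 65.4 over the genes and in KM71-LpDLDH a median of 49.3, against 90.3 and 84.6 over all genes. Together they took 2.84%, 2.31% and 1.54% of the reads of DF1, DF2 and DF3, against 1.68%, 1.83% and 1.70% of D1, D2 and D3. Thus the summed level in DF3 lay below all 3 KM71-LpDLDH cultures and that in DF1 and DF2 above them. The DF1/DF3 ratio ranged from 1.61 to 4.39 with a median of 1.73, and it was above 2 in 24 genes.

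PAS_chr3_0348 had the lowest DF3/DF1 ratio of the members. It was at 88.4, 55.6 and 20.1 CPM in DF1, DF2 and DF3, against 40.9, 47.5 and 59.5 CPM in D1, D2 and D3. DF1 stood above every KM71-LpDLDH culture and DF3 below every one, so the strain means hardly differed (log2 fold change 0.03 ± 0.62, SE, n = 3 per strain). Here and below, fold changes are KM71-ScFlo1-LpDLDH over KM71-LpDLDH on TMM-scaled counts by edgeR, with the standard error taken from the log2 CPM of the 3 and 3 libraries.

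PAS_chr1-4_0538 was at 366, 262 and 108 CPM in DF1, DF2 and DF3, against 87.4, 96.0 and 99.9 CPM in D1, D2 and D3. PAS_chr2-2_0267 followed almost the same course at 342, 260 and 109 CPM, against 84.7, 89.1 and 106 CPM. PAS_chr3_0069 was at 443, 338 and 159 CPM, against 114, 127 and 148 CPM. In these 3 genes the KM71-LpDLDH cultures lay close together, DF3 sat just above the highest of them, and DF1 and DF2 stood far above, so the distance from the other strain was small in 1 culture and large in the others. Their log2 fold changes between strains were 1.25 ± 0.50, 1.22 ± 0.48 and 1.15 ± 0.43, past the threshold of a 2-fold change, and 0.87, 0.89 and 0.85 without DF1, short of it.

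PAS_chr2-1_0249 had the lowest mean level of the 8 steepest genes. It had 47.2, 33.98 and 14.6 CPM in DF1, DF2 and DF3, against 9.32, 9.95 and 8.41 CPM in D1, D2 and D3. All 3 KM71-ScFlo1-LpDLDH cultures were above all 3 KM71-LpDLDH cultures (log2 fold change 1.68 ± 0.47).

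PAS_chr1-3_0016, PAS_chr2-1_0008 and PAS_chr4_0550 overlapped between the strains. PAS_chr1-3_0016 was at 93.1, 57.5 and 30.3 CPM in DF1, DF2 and DF3, against 35.0, 37.5 and 33.7 CPM in D1, D2 and D3. PAS_chr2-1_0008 was at 354, 242 and 133 CPM, against 154, 177 and 153 CPM. In both, DF3 was below the KM71-LpDLDH cultures and the other 2 cultures above them. PAS_chr4_0550 was at 710, 374 and 246 CPM in DF1, DF2 and DF3, against 545, 441 and 412 CPM in D1, D2 and D3, so there DF2 too was below, and D1 was the highest of its own strain.

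The most abundant genes higher in DF1 were PAS_chr1-1_0433, PAS_chr2-2_0131 and PAS_chr3_0778. PAS_chr2-2_0131 was at 1892, 1500.1 and 769 CPM in DF1, DF2 and DF3, against 390.0, 400.3 and 326 CPM in D1, D2 and D3, and it was the steepest of the 3. PAS_chr1-1_0433 was at 1765, 1459 and 1088 CPM, against 1083, 1377 and 1218 CPM. PAS_chr3_0778 was at 1137, 956 and 686 CPM, against 1062, 1117 and 1020.4 CPM. The last 2 lay near the ratio threshold and met the rule under total counts but not under all 3 scalings.

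**Figure D2:**
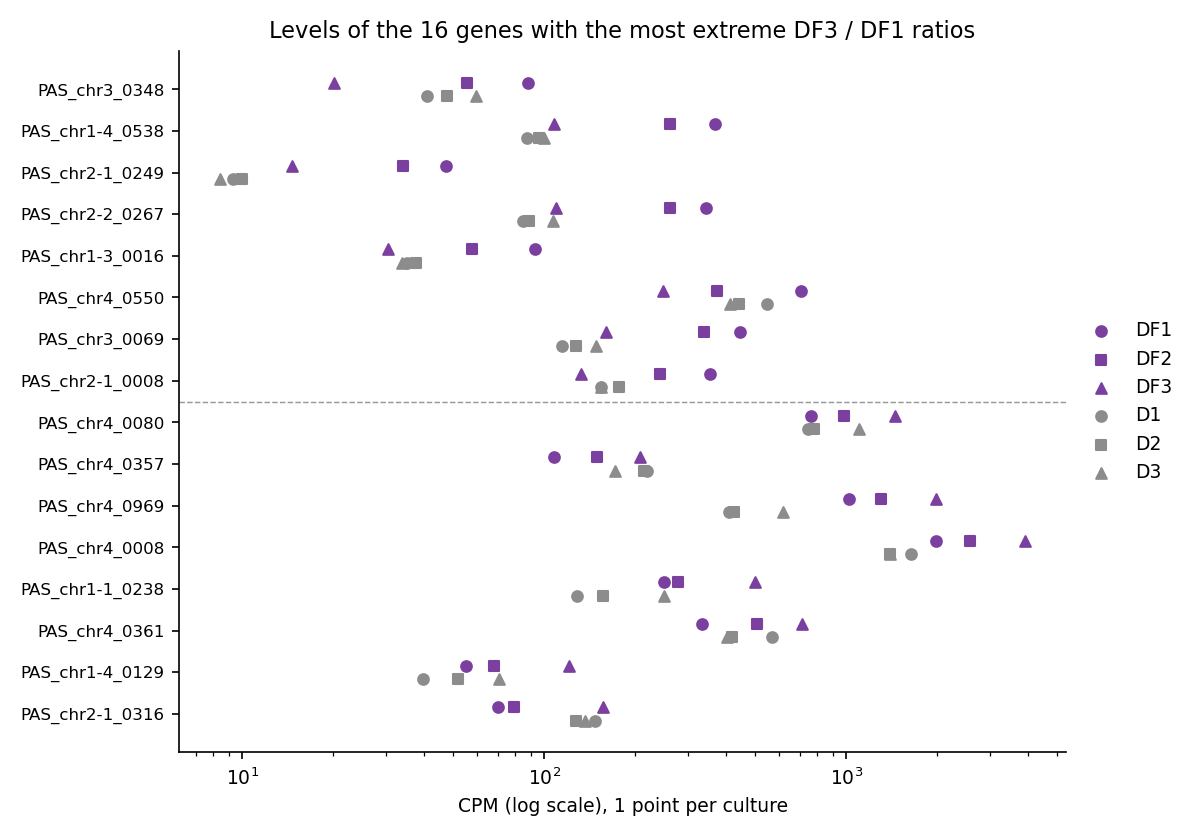
CPM on a log axis of the 8 members with the lowest DF3/DF1 ratio (above the dashed line) and the 8 with the highest (below it), with 1 point per culture, KM71-ScFlo1-LpDLDH in purple above KM71-LpDLDH in grey. The purple points are spread, with the square of DF2 between the others, and the grey points of PAS_chr1-4_0538 lie between 87.4 and 99.9 CPM while its purple points run between 108 and 366 CPM.

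The 46 genes higher in DF3 were more abundant. Their mean CPM had a median of 129 over the genes in KM71-ScFlo1-LpDLDH and 115 in KM71-LpDLDH. Together they took 1.82%, 2.23% and 3.28% of the reads of DF1, DF2 and DF3, against 1.80%, 1.69% and 1.93% of D1, D2 and D3. DF1 was thus within the range of the KM71-LpDLDH cultures for the summed level, and DF3 stood above it. The DF3/DF1 ratio ranged from 1.602 to 2.23 with a median of 1.73, and it was above 2 in 3 genes, which is a narrower range than among the genes higher in DF1.

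PAS_chr2-1_0316 had the highest ratio, 2.23. It was at 70.2, 79.2 and 157 CPM in DF1, DF2 and DF3, against 147, 127 and 137 CPM in D1, D2 and D3. DF1 and DF2 were close to each other and below every KM71-LpDLDH culture, while DF3 was above every one (log2 fold change -0.52 ± 0.40). PAS_chr4_0361 was at 333, 506 and 711 CPM in DF1, DF2 and DF3, against 568, 419.7 and 402 CPM in D1, D2 and D3, with DF1 below the range of the other strain, DF2 within it and DF3 above it. PAS_chr4_0357 was at 107, 149 and 207 CPM, against 218.02, 213 and 171 CPM, so its DF3 level fell within the range of the other strain and its DF1 and DF2 levels below it.

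PAS_chr4_0008 and PAS_chr4_0969 were higher in all 3 KM71-ScFlo1-LpDLDH cultures. PAS_chr4_0008 was at 1986, 2571 and 3917 CPM in DF1, DF2 and DF3, against 1638, 1393 and 1393 CPM in D1, D2 and D3. PAS_chr4_0969 was at 1024, 1300.4 and 1974 CPM, against 409.8, 426 and 616 CPM. The distance from the other strain was thus largest in DF3 for both. Their log2 fold changes were 0.85 ± 0.33 and 1.47 ± 0.37, and that of PAS_chr4_0008 was 1.06 without DF1 and 0.49 without DF3.

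PAS_chr1-4_0129, PAS_chr4_0080 and PAS_chr1-1_0238 varied in both strains. PAS_chr1-4_0129 was at 54.9, 68.2 and 121 CPM in DF1, DF2 and DF3, against 39.6, 51.7 and 70.6 CPM in D1, D2 and D3. PAS_chr1-1_0238 was at 249.6, 277 and 497 CPM, against 128, 156 and 249.4 CPM. PAS_chr4_0080 was at 763, 982 and 1449 CPM, against 744, 784.01 and 1098 CPM. In each of them the culture numbered 3 was the highest of its strain in both strains. Whether cultures with the same number were handled together is not stated.

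The most abundant of all members were PAS_chr1-3_0102 and PAS_chr4_0151. PAS_chr1-3_0102 was at 3480 (DF1), 4201 (DF2) and 6064 CPM (DF3), against 2206, 2087 and 2941 CPM in D1, D2 and D3, and every KM71-ScFlo1-LpDLDH culture was above every KM71-LpDLDH culture. PAS_chr4_0151 was at 2293, 2938 and 4316 CPM in DF1, DF2 and DF3, against 3254, 2746 and 2600.0 CPM in D1, D2 and D3. DF1 was below and DF3 above all cultures of the other strain, and the fold change between strains was near 0 (log2 0.06 ± 0.31), at 0.27 without DF1 and -0.27 without DF3.

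Whether the gradient ran along the strain difference depended on its direction. A gene was counted as along where DF3 and the mean of the KM71-ScFlo1-LpDLDH cultures lay on the same side, DF3 relative to DF1 and the mean relative to KM71-LpDLDH. This held for 68 of the 173 genes (39.3%), against 43.3% of all 4994 genes. It held for 36 of the 46 genes higher in DF3 and for 32 of the 127 genes higher in DF1. The 2 counts have a common source, since in both classes most genes had a higher mean with ScFLO1, 36 of 46 and 95 of 127, as had 59.0% of all genes. For most members, therefore, the culture with the higher level was also the one farther from KM71-LpDLDH, and this was DF3 in one class and DF1 in the other. Over the 57 genes higher in DF1 under all 3 scalings, 42 had the higher mean with ScFLO1. Under TMM scaling 34 of the 46 and 38 of the 127 genes ran along the strain difference.

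The distance of each culture from KM71-LpDLDH moved accordingly. Relative to the mean of D1, D2 and D3, the genes higher in DF1 had median ratios of 1.67 in DF1, 1.33 in DF2 and 0.902 in DF3. The genes higher in DF3 had median ratios of 1.10 in DF1, 1.35 in DF2 and 1.95 in DF3. Over all genes these medians were 1.13, 1.10 and 1.04. DF2 stood at a like distance in both classes. The other 2 cultures changed places, which follows from how the classes were formed.

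In single genes, DF1 was above all 3 KM71-LpDLDH cultures in 105 of the 127 genes higher in DF1, within their range in 7 and below them in 15. DF3 was above them in 36 of these genes, within in 33 and below in 58. For the 46 genes higher in DF3, DF3 was above all 3 in 41, within in 4 and below in 1, and DF1 was above in 21, within in 8 and below in 17. Over all genes DF1 was above them in 54.3%, within in 13.5% and below in 32.2%. DF3 was above them in 45.6% of all genes, within in 16.4% and below in 38.1%. The mean of KM71-LpDLDH fell inside the range of the KM71-ScFlo1-LpDLDH cultures in 53 of the 127 and 17 of the 46 genes, against 17.4% of all 4994 genes. The wide range the rule required raises this count. In these 70 genes the side on which a KM71-ScFlo1-LpDLDH culture lay differed from culture to culture.

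**Figure D3:**
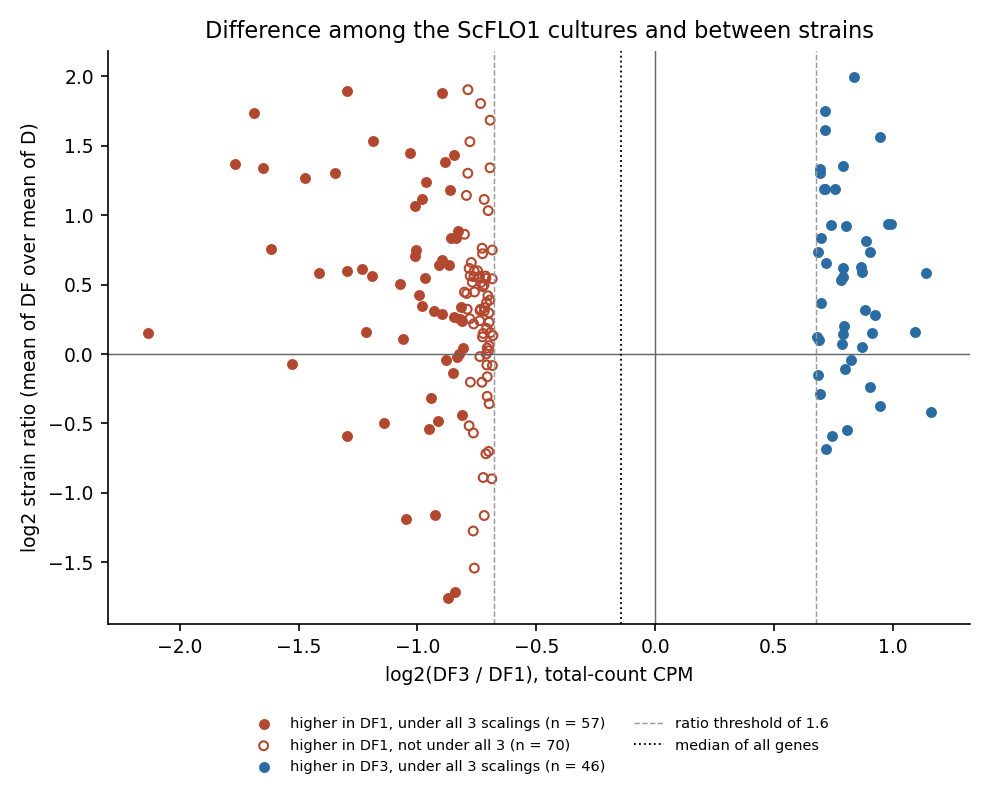
Log2 DF3/DF1 ratio of total-count CPM (horizontal) against the log2 strain ratio of KM71-ScFlo1-LpDLDH over KM71-LpDLDH (vertical) for the 173 members, 1 point per gene. Filled points met the rule under all 3 scalings (57 higher in DF1, 46 higher in DF3) and open points (70) did not. In both classes more points lie above 0 than below it, 95 of 127 and 36 of 46, and the empty middle is set by the ratio threshold.

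Tested with edgeR's quasi-likelihood test, 41 of the 173 genes passed both thresholds for a strain difference, a 2-fold change and an adjusted p of 0.05. Of all 5029 genes averaging 10 or more reads, 16.4% passed them, 8.41% higher and 7.99% lower in KM71-ScFlo1-LpDLDH. Of the genes higher in DF1, 22 were called higher and 9 lower with ScFLO1, and of the genes higher in DF3, 10 were called higher and 0 lower. The rule bounded this contrast and required spread within 1 strain, so nothing is read from the counts. The KM71-ScFlo1-LpDLDH and KM71-LpDLDH libraries did not overlap in 73 of the 173 genes, 51 of 127 and 22 of 46, against 68.0% of all 4994 genes. All KM71-ScFlo1-LpDLDH libraries were the higher ones in 57 of the 173 genes, against 40.3% of all 4994 genes. They were the lower ones in 16 of the 173, against 27.7% of all.

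These calls moved with single libraries. Without DF1, 14 of the genes higher in DF1 were called higher with ScFLO1 and 10 lower, and without DF3 24 were called higher and 7 lower. Of the genes higher in DF3, 14 were called higher without DF1, while 4 were called higher and 2 lower without DF3. The median log2 fold change of the genes higher in DF1 was 0.30 with all libraries, 0.12 without DF1 and 0.44 without DF3. That of the genes higher in DF3 was 0.48 with all libraries, 0.68 without DF1 and 0.16 without DF3. The direction of the fold change turned in 16 of the 127 and 4 of the 46 genes without DF1, and in 11 and 7 without DF3. The construction of the classes fixes which way these values move.

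**Figure D4:**
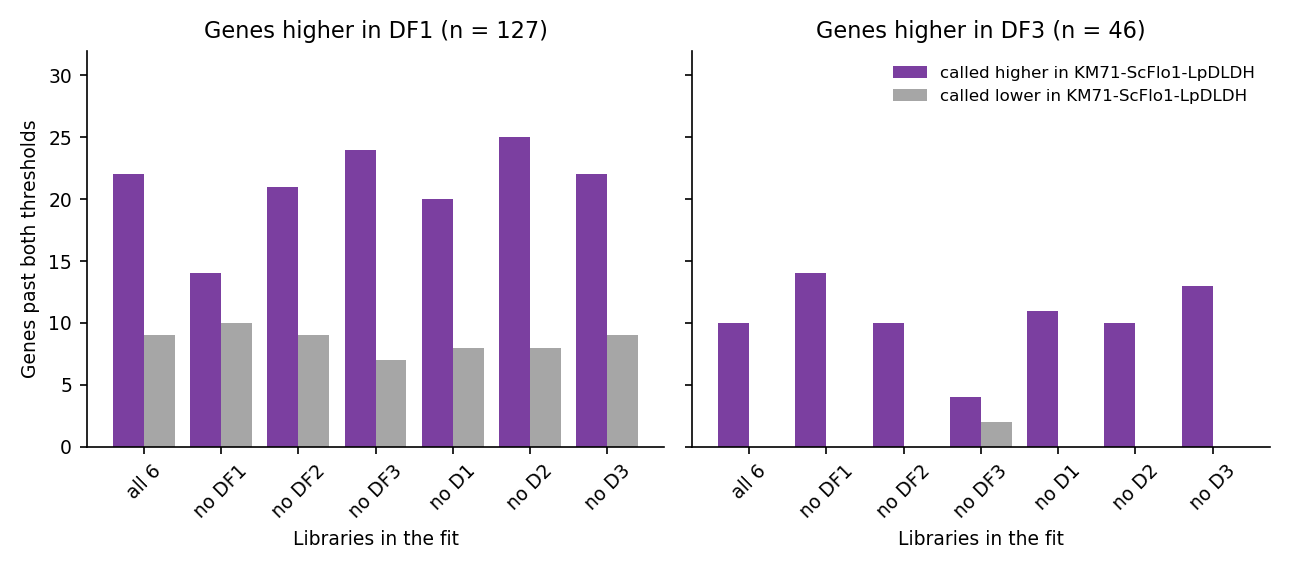
Number of members called higher (purple) or lower (grey) in KM71-ScFlo1-LpDLDH at both thresholds, with all 6 libraries and with each library left out, for the 127 genes higher in DF1 and the 46 higher in DF3. The purple bar is 14 without DF1 for the genes higher in DF1, and 4 without DF3 for the genes higher in DF3, against 22 and 10 with all libraries.

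Some members differed between the strains by far more than among the KM71-ScFlo1-LpDLDH cultures. PAS_chr3_0211 had the largest fold change and ran along the strain difference, at 52.7, 63.7 and 94.1 CPM in DF1, DF2 and DF3, against 18.1, 16.2 and 17.3 CPM in D1, D2 and D3 (log2 fold change 1.93 ± 0.29). PAS_chr2-2_0355 ran against it at 218.4, 204 and 117 CPM, against 40.2, 54.1 and 51.0 CPM (log2 1.78 ± 0.28). Both were above every KM71-LpDLDH culture in all 3 cultures, with DF3 the farthest away in the first gene and the nearest in the second.

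PAS_chr4_0404 and PAS_chr1-1_0490 also ran against the strain difference. Both met the rule under total counts but not under all 3 scalings. PAS_chr4_0404 was at 69.0, 61.3 and 39.96 CPM in DF1, DF2 and DF3, against 12.3, 15.4 and 16.7 CPM in D1, D2 and D3 (log2 fold change 1.83 ± 0.25). PAS_chr1-1_0490 was at 368, 335 and 221 CPM, against 90.6, 89.6 and 83.2 CPM (log2 1.70 ± 0.20). PAS_chr2-2_0131, given above, had a log2 fold change of 1.78 ± 0.36. In these 3 genes, as in PAS_chr2-2_0355, DF3 was the culture nearest to KM71-LpDLDH and still above it.

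The 4 members with the lowest fold changes were all higher in DF1 than in DF3. Of these, PAS_chr2-1_0348 and PAS_chr4_0043 met the rule under total counts but not under all 3 scalings. PAS_chr1-4_0672 was at 31.7, 27.0 and 17.3 CPM in DF1, DF2 and DF3, against 78.8, 87.2 and 94.6 CPM in D1, D2 and D3 (log2 fold change -1.88 ± 0.24). PAS_chr3_0717 was at 107, 88.1 and 59.7 CPM, against 289, 278.4 and 273 CPM (-1.83 ± 0.22). For both, DF3 was the farthest from KM71-LpDLDH, so gradient and strain difference ran the same way. PAS_chr2-1_0348 (-1.68 ± 0.27) and PAS_chr4_0043 (-1.40 ± 0.23) had the same order of cultures, at 12.5 to 21.2 CPM and 29.8 to 50.7 CPM in KM71-ScFlo1-LpDLDH, against 45.5 to 66.0 CPM and 96.1 to 115 CPM in KM71-LpDLDH.

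The rule used the KM71-LpDLDH cultures only through their mean and the summed count, not one by one. The ratio of the highest to the lowest of D1, D2 and D3 had a median of 1.24 over the 173 genes, 1.23 for those higher in DF1 and 1.29 for those higher in DF3, against 1.17 over all 4994 genes. It reached 1.6 in 14 of the 173 genes, 7 in each class, against 2.80% of all genes, and 1.4 in 43 genes, 28 and 15, against 10.0% of all genes. Depth bears on this ratio. Among genes with 300 to 1000 reads it reached 1.6 in 3 of 19 members (15.8%) and in 25.1% of all genes of that depth. With 1000 to 3000 reads it did so in 4 of 41 members and in 5.26% of all. With 3000 to 10000 reads it did so in 4 of 50 members and in 1.31% of all. With 10000 or more reads it did so in 3 of 63 members and in 1.07% of all. The 14 genes fell to 4, 9 and 6 without D1, D2 and D3, where the ratio is between 2 cultures. In 165 of the 173 genes the range over the KM71-ScFlo1-LpDLDH cultures was wider than over the KM71-LpDLDH cultures, which the rule favours.

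The order of the KM71-LpDLDH cultures did not follow the classes. D3 was above D1 in 63 of the 127 genes higher in DF1 and in 22 of the 46 genes higher in DF3, against 43.6% of all genes. It was below D1 in 88 of the 173 members, against 56.4% of all genes. The median D3/D1 ratios were 0.999 and 0.997, against 0.980 over all genes. D2 lay between D1 and D3 in 67 of the 173 genes (38.7%), against 30.2% of all genes. This was 43 of the 127 genes higher in DF1 (33.9%) and 24 of the 46 higher in DF3 (52.2%). In 6 genes D3 and D1 differed by at least 1.6 in the same direction as DF3 and DF1, and in 3 genes in the other, against 28 and 33 of the 4994 genes. The same rule applied to D1, D2 and D3 took 35 genes, 12 higher in D1 and 23 higher in D3. Of these 35 genes 7 were members, whereas of all 4994 genes 173 were.

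The members with the widest range in KM71-LpDLDH were PAS_chr1-1_0239, PAS_chr1-4_0681, PAS_chr1-3_0305 and PAS_chr1-4_0229. PAS_chr1-1_0239 was at 78.7, 87.0 and 147 CPM in DF1, DF2 and DF3, against 53.0, 39.6 and 94.4 CPM in D1, D2 and D3, with a wider range in KM71-LpDLDH (2.38) than in KM71-ScFlo1-LpDLDH (1.87). PAS_chr1-4_0681 was at 604, 489.7 and 340.1 CPM, against 168, 359 and 247 CPM. In the first D3 was the highest of its strain, and in the second D2, so the high culture was not the same one. PAS_chr1-3_0305 was at 11.5, 9.47 and 4.53 CPM in DF1, DF2 and DF3, against 3.96, 3.60 and 1.86 CPM in D1, D2 and D3. PAS_chr1-4_0229 was at 32.3, 24.2 and 18.1 CPM, against 11.9, 19.9 and 9.47 CPM. The low counts of PAS_chr1-3_0305 leave more counting error in its ratio than in those of the other 3 genes.

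**Figure D5:**
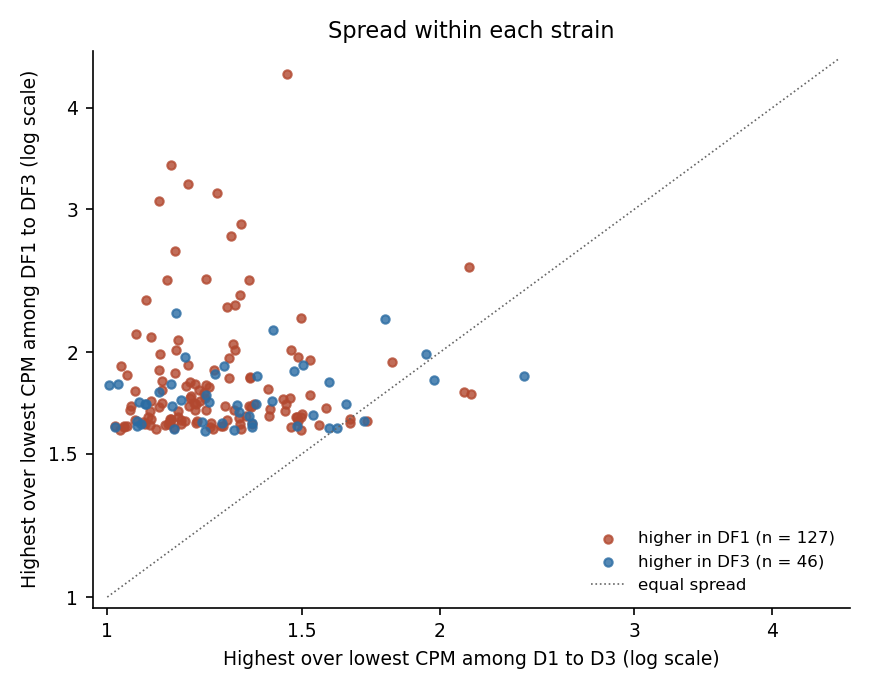
Highest over lowest CPM among DF1 to DF3 (vertical) against the same among D1 to D3 (horizontal) for the 173 members, both axes logarithmic, with the line of equal spread dotted. Most points lie left of a ratio of 1.5 among D1 to D3, and 165 of 173 lie above the line. PAS_chr1-1_0239 is the point farthest to the right, at 2.38.

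Several members were neighbours by identifier. Genome coordinates were not available, so neighbour and next mean consecutive identifier numbers only, here and below, and position on the genome was not checked. Of the 173 genes, 26 stood in 14 pairs with consecutive numbers on the same chromosome, and 13 of the 14 pairs had the same direction. Over the 4715 such pairs among all genes with at least 300 reads, the DF3/DF1 ratio lay on the same side of 1 in 63.0%. Those pairs needed no minimum ratio, unlike the members, so the shares are not alike in kind. A common direction also raises both, since 69.7% of all genes and 127 of the 173 members were lower in DF3 than in DF1. Whether neighbours shared a direction more often was not tested. Use of strand in counting is not given in the sources used here, so reads of neighbours that overlap, if any do, cannot be told apart.

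The longest run of neighbours with a single direction was PAS_chr2-2_0271, PAS_chr2-2_0272 and PAS_chr2-2_0273, all higher in DF1. PAS_chr2-2_0271 was at 339, 311 and 149 CPM in DF1, DF2 and DF3, against 87.5, 105 and 81.8 CPM in D1, D2 and D3. PAS_chr2-2_0272 was at 131.6, 92.2 and 53.6 CPM, against 135, 121 and 162 CPM. Although they shared the order of the cultures, the first was higher with ScFLO1 in every culture and the second lower than every KM71-LpDLDH culture in DF2 and DF3. PAS_chr3_0349, next to PAS_chr3_0348, was at 222, 147 and 90.7 CPM in DF1, DF2 and DF3, against 106, 105 and 93.3 CPM in D1, D2 and D3, so DF3 was again below the KM71-LpDLDH cultures.

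On chromosome 4, PAS_chr4_0357 and PAS_chr4_0358 were both higher in DF3 and both lower on average with ScFLO1. PAS_chr4_0358 was at 89.1, 110 and 149 CPM in DF1, DF2 and DF3, against 218.2, 142 and 166 CPM in D1, D2 and D3. The next gene, PAS_chr4_0359, met the gradient as well but lay outside the strain window, at 47.0, 64.9 and 79.7 CPM, against 347, 335 and 277.6 CPM. All 3 genes had DF3 as the culture nearest to the other strain. PAS_chr3_0361, PAS_chr3_0362 and PAS_chr3_0363 held the only pair with opposite directions. PAS_chr3_0362 was at 843, 988 and 1357 CPM in DF1, DF2 and DF3, against 1119, 1129 and 1286 CPM in D1, D2 and D3, and PAS_chr3_0363 was at 51.4, 37.8 and 31.96 CPM, against 50.4, 44.3 and 33.7 CPM.

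The classes were spread over all 4 chromosomes. Of the genes higher in DF3, 16 of 46 (34.8%) lay on chromosome 3, which holds 23.4% of the 4994 genes. Of the genes higher in DF1, 44 of 127 (34.6%) lay on chromosome 1, which holds 28.7%. Shares of this kind were not tested.

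Products are known here for 22 genes (transporters, iron and zinc genes, a proton pump and cell wall genes), and 0 of them were members. Their DF3/DF1 ratios stayed within 1.6-fold in 16 of 22, among them PAS_chr1-1_0002, the plasma membrane H+-ATPase that pumps protons out of the cell, at 5444, 5132 and 4631 CPM in DF1, DF2 and DF3, against 2254, 2086 and 2427 CPM in D1, D2 and D3. The other 6 met the gradient but were outside the strain window or left out by the rule. The 3 left-out genes were the transporter homologs PAS_chr1-1_0378, higher in DF3, and PAS_chr2-1_0874 and PAS_chr2-1_0649, higher in DF1, and all had means above those of KM71-LpDLDH. Outside the window were PAS_chr3_0516, a high-affinity zinc transporter at 639, 839 and 1184 CPM in DF1, DF2 and DF3, against 33.1, 29.0 and 26.4 CPM in D1, D2 and D3, and PAS_chr2-2_0009, a low-affinity iron transporter at 89.6, 125 and 190.2 CPM, against 35.8, 33.4 and 28.7 CPM. Both transporters of metal ions were highest in DF3. PAS_chr1-3_0218, a probable subunit of an enzyme of sphingolipid synthesis, was highest in DF1 at 263, 204 and 123 CPM, against 36.4, 47.2 and 48.9 CPM.

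Beside these, 2 members are next by number to genes with a product. PAS_chr1-1_0003, next to the H+-ATPase gene, was higher in DF3 at 374, 461 and 642 CPM in DF1, DF2 and DF3, against 362, 316 and 343 CPM in D1, D2 and D3. PAS_chr1-1_0397, next to PAS_chr1-1_0398, a homolog of the weak acid exporter gene PDR12 of S. cerevisiae, was higher in DF1 at 92.0, 89.5 and 56.7 CPM, against 100.4, 105 and 101 CPM. In neither case did the neighbour show the same spread, and PAS_chr1-1_0398 was at 188, 199 and 166 CPM in DF1, DF2 and DF3, against 569, 642 and 848 CPM in D1, D2 and D3.

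In all, 25 further genes met the gradient but not the strain window, 14 higher in DF1 and 11 higher in DF3. PAS_chr1-3_0017, next to PAS_chr1-3_0016, was among them, at 222, 151 and 110 CPM in DF1, DF2 and DF3, against 30.8, 43.4 and 40.5 CPM in D1, D2 and D3. The edge of the ratio was not a gap in the values. Just inside it, PAS_chr3_0361 and PAS_chr3_0028 had DF3/DF1 ratios of 1.602 and 1.606, and PAS_chr1-4_0346 and PAS_chr3_0363 had DF1/DF3 ratios of 1.605 and 1.607. Just outside, PAS_chr3_0496 and PAS_chr3_0078 had DF3/DF1 ratios of 1.596 and 1.594, and PAS_chr1-4_0100 and PAS_chr1-3_0175 had DF1/DF3 ratios of 1.595 and 1.594.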

How the data were processed

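RNA was sequenced from 3 KM71-ScFlo1-LpDLDH and 3 KM71-LpDLDH cultures. Per the methods, fastp cleaned the reads, HISAT2 placed them on the GS115 genome of P. pastoris and HTSeq-count gave the count of each gene. The strand setting and tool versions were not given in the sources used here. Read counts for 5040 genes and 6 libraries were deposited by the authors as 1 table. Its name calls it normalized. It was taken as raw counts here, because every value is a whole number, the totals vary and the DESeq2 size factors ran between 0.872 and 1.15. The number of table columns of no sample was 0.

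CPM were computed from library totals, and members were found by the stated rule. The 5029 genes averaging 10 or more reads (11 left out) were scaled by TMM and tested with edgeR 4.0.16 in R 4.3.3, with Benjamini-Hochberg adjustment. The thresholds, an adjusted p of 0.05 and a 2-fold change, follow the methods. Standard errors used log2 CPM with a prior count of 2. The test was checked on simulated counts. Counts from 3 cultures a strain measure only the spread between these samples, which nothing in the labels separates into culture and technical parts.

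Named genes were the members with the 8 highest and 8 lowest DF3/DF1 ratios, the 4 highest and 4 lowest strain fold changes, the 4 largest fold changes against the gradient, the 4 widest ranges in KM71-LpDLDH, the 3 most abundant in each direction, and 2 on each side of each threshold. Other genes, such as neighbours, were named after their values were seen. The members and lists were chosen with earlier results of these data known. The lists by product words were not applied, because 0 identifiers matched the reference. Alternatives were other scalings, depths, filters, ratios and windows, DESeq2 1.42.0, a block for the replicate number, and fits with 1 library left out.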

Additional observations from a re-analysis of the deposited data

How the results depend on the processing

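The number of graded genes was 143 under TMM scaling (108 of the 173 kept), 151 under DESeq2 size factors (103 kept) and 171 with all libraries thinned to the smallest (163 kept), and 103 met the rule under all 3 scalings. It was 570 at a ratio of 1.4 and 27 at a ratio of 2. With DF1 in the middle 13 genes met the rule, with DF3 in the middle 2, and with D1 to D3 in place of DF1 to DF3 35. Without a KM71-LpDLDH culture it was 173 to 174. The last kind of setting and the joint count over the scalings were chosen after seeing the data. The members along the strain difference numbered 72 under TMM and under size factors, and 50 to 81 without single libraries. The calls of the strain test numbered 40 to 41 under the other scalings, filters and DESeq2, and 37 to 44 without single libraries. A KM71-LpDLDH range of at least 1.4 in place of 1.6 was met by 43 members, and without single cultures 4 to 9 reached 1.6.

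The deviations of same-numbered libraries correlated at -0.13, 0.05 and 0.11 over all genes, and DF1 correlated best with D2 (0.28). With 3 libraries a strain these deviations are tied to one another. Whether cultures with the same number were handled together was therefore not tested. With the replicate number as a block, 40 members were called, and the fold changes of PAS_chr3_0348 (log2 -0.12) and PAS_chr3_0361 (-0.000805) turned in sign.

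Named genes with a strain log2 fold change near 0 turned in sign when a library was left out. The lowest and highest values over the 6 libraries left out were -0.28 (without DF3) and 0.32 (without DF1) for PAS_chr4_0361, -0.14 (DF3) and 0.41 (D3) for PAS_chr4_0080, -0.47 (DF1) and 0.40 (DF3) for PAS_chr3_0348, -0.67 (DF1) and 0.072 (DF3) for PAS_chr4_0550, -0.028 (DF1) and 0.26 (DF3) for PAS_chr1-1_0433, -0.27 (DF3) and 0.27 (DF1) for PAS_chr4_0151, -0.20 (DF3) and 0.20 (DF1) for PAS_chr3_0361, and -0.11 (DF1) and 0.16 (DF3) for PAS_chr1-4_0346.

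With 1 library per culture and 3 cultures a strain, no difference between single cultures can be tested. Levels under about 10 CPM carry more counting error, and the 19 members with under 1000 reads have the least certain ratios.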
